A study of Mus musculus with 15 samples.

Results

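The 9 genes described here regulate iron or carry iron and haem: Hamp and Hamp2, which encode the mouse hepcidins, the iron sensors Hfe and Tfr2, the serum iron carrier Trf and its cellular receptor Tfrc, the iron exporter Slc40a1, the ferritin heavy chain gene Fth1, and the haem carrier Hpx. They were taken as a list of named genes, and their array probes were matched to symbols through the RefSeq accession that the scanner files give for each probe. All 9 were among the 15619 genes that could be tested in the whole series. The list was drawn up with earlier results of these data known, so counts over it describe the list and are not independent evidence.

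The study asked how hepatocytes behave when they are grown into an ectopic liver. Wild-type FVB/N female mice, 7 to 9 weeks old at the start, were given 2 intraperitoneal doses of monocrotaline, a plant toxin that injures the liver, at 70 mg/kg and 2 weeks apart. They then received 1000000 hepatocytes, isolated from FVB/N mice that carry a human α1-antitrypsin transgene and were 8 to 20 weeks old, under the capsule of the kidney. Between day 250 and day 300, when the hosts were 48 to 55 weeks old, 3 tissues were taken from them, and total RNA of each was hybridised to a one-colour microarray. The groups were the neo-liver (4 arrays), which is the engrafted tissue dissected out of the kidney, the host liver (4 arrays), which is the injured liver of the recipients, the host kidney (4 arrays), and the control liver (3 arrays), which came from normal FVB/N females 20 weeks old. Every host tissue therefore shares the toxin, the transplant and the older age, and none of these can be told apart from the others in a comparison with control liver. The dissected neo-liver could hold kidney tissue from around it, and its supporting cells need not come from the donor.

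Hepcidin is a peptide hormone made mainly by hepatocytes. It binds the iron exporter ferroportin, the product of Slc40a1, and causes its loss from the cell surface, which lowers iron release from macrophages, gut and liver. Hepatocytes adjust Hamp to iron through bone morphogenetic proteins from the liver endothelium, acting on SMAD proteins, with Hfe and Tfr2 as partners that sense iron-loaded transferrin, and to inflammation through interleukin 6 and STAT3. Mice carry a second copy of the gene, Hamp2, whose product is not known to share the effect of hepcidin on iron.

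Array levels are given as log2 of the processed signal relative to the 75th percentile of that array, so 0 is the level of that percentile and a difference of 1 is a doubling. A difference was called where the adjusted p of limma's two-sided moderated test, with the Benjamini-Hochberg method run over all 15619 genes, was under 0.05. The labels number the arrays but do not say that each control or host array is a separate animal, so p-values measure the spread between these samples, which may be technical. The 75th percentile signal was 416 to 676 in neo-liver, 287 to 448 in host liver, 561 to 874 in host kidney and 389 to 424 in control liver. Between 46.4% and 67.6% of probes were well above background on an array, with host liver lowest and host kidney highest. No probe was saturated on any array. Neo-liver and control liver were on the same slide and in the same scan, while no other group shared a slide with host kidney or with host liver. In comparisons with those tissues the effects of slide and tissue cannot be told apart. Each labelled liver carried the hepatocyte markers: the summed linear level of 9 of 10 listed markers, in multiples of the 75th percentile, was 3636 to 5501 in neo-liver and 6269 to 9168 in host liver, against 11.1 to 29.2 in host kidney and 6490 to 6854 in control liver. Kidney RNA was present in the neo-liver samples, where 23 tubule markers gave a median kidney share of 14.9%, 37.9%, 17.4% and 26.7% on arrays 1 to 4. The share of a marker is its linear level above the control liver mean, as a percentage of the host kidney mean above that same mean. Markers were used if their mean in host kidney was at least 8 times that in control liver. In host liver the same share was 0.00925% to 0.0195%.

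Most of the 9 genes separated the engrafted tissue from kidney: relative to host kidney, 7 were higher in neo-liver, where 23.2% of all genes tested were called higher and 29.5% lower. Hamp, Hpx, Tfr2, Hamp2 and Trf differed by 6.32 or more on the log2 scale, while Fth1 and Tfrc did not pass the test. Compared with host liver, 5 of the 9 were lower in neo-liver (Hamp2, Tfr2, Trf, Slc40a1 and Fth1) and none was higher, beside 31.5% of all genes called lower and 17.1% called higher. Against control liver, 5 were lower in neo-liver (Hamp2, Tfr2, Tfrc, Hfe and Trf), beside 29.8% of all genes called lower and 20.4% called higher. Hamp2 and Tfrc were also lower in host liver than in control liver, where 11.2% of all genes were called lower and 13.4% higher. Groups without any overlap were found for 7 genes between neo-liver and host kidney, beside 49.4% of all genes, for 2 between neo-liver and host liver (36.5%), for 5 between neo-liver and control liver (57.1%), and for 4 between host liver and control liver (37.5%). The counts against host liver and control liver are to be read beside those shares, which are large because much of the transcriptome differed between these tissues.

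**Figure D1:**
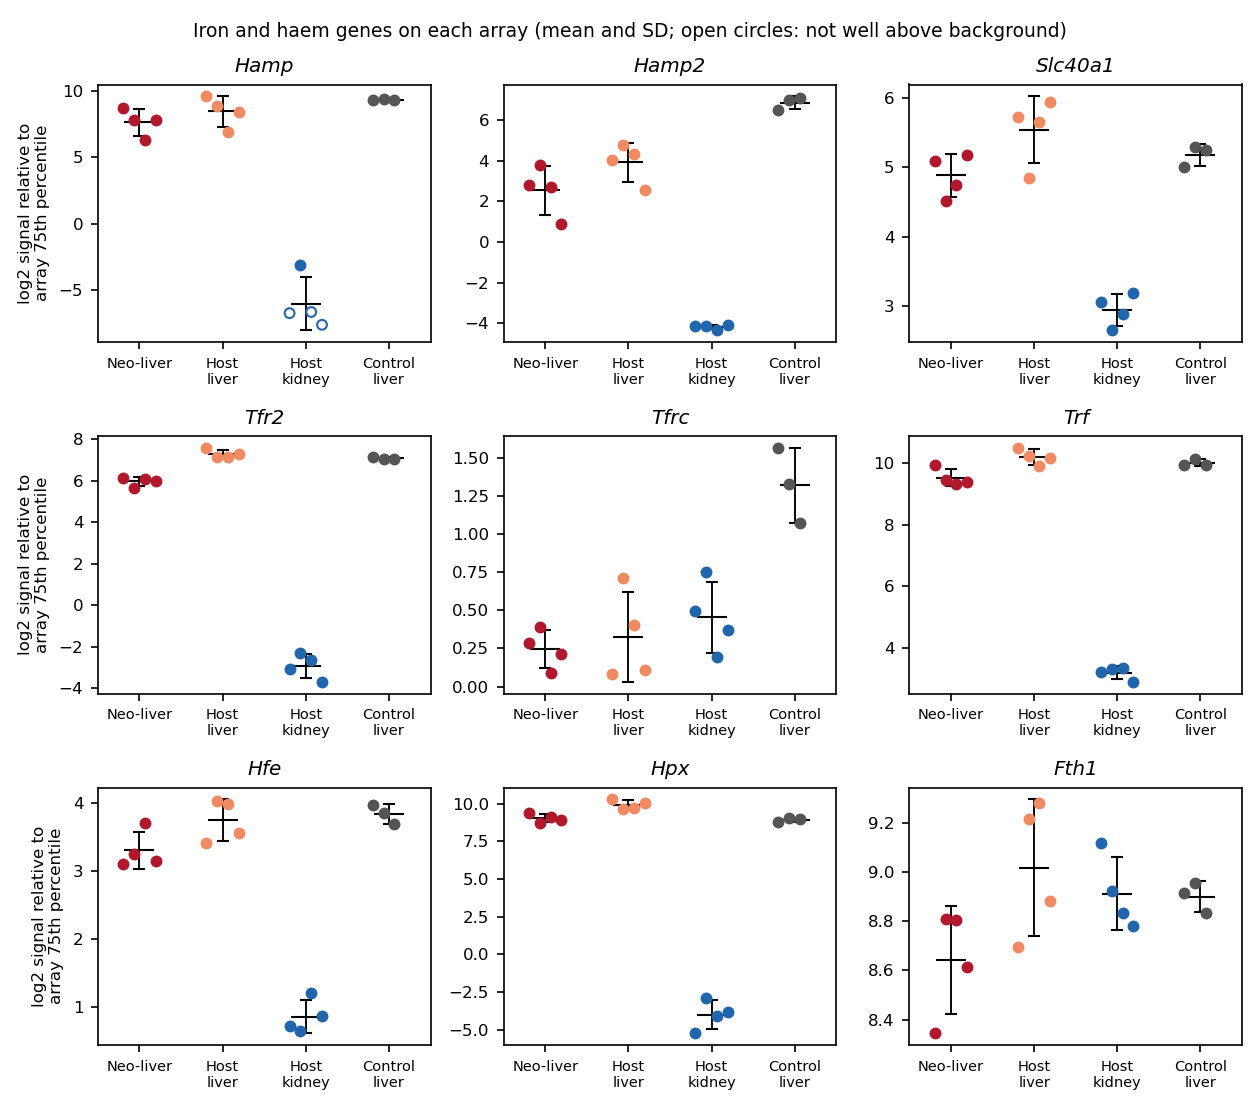
Levels of the 9 genes on all 15 arrays, as log2 signal relative to the array's 75th percentile (vertical axis, with its own range in each panel), by group. Points are arrays, bars are the mean and SD, and open circles mark arrays where the probe was not well above background. Hamp and Hpx lie far above host kidney, where Hamp was below background on 3 of 4 arrays, Hamp2 falls away from control liver in both host tissues, and Fth1 lies between 8.34 and 9.28 everywhere.

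Hamp was at 8.68, 7.78, 6.25 and 7.76 in the 4 neo-livers and at 9.57, 8.88, 6.87 and 8.42 in the 4 host livers. Host kidney gave -6.75, -3.09, -6.66 and -7.63, of which only the second was well above background, and control liver gave 9.29, 9.36 and 9.29. All neo-livers lay below all control livers, whereas the host livers overlapped with both of the other liver groups. The SD was 1.01 in neo-liver and 1.15 in host liver, against 0.04 in control liver, so the control arrays were nearly identical and the host arrays were not.

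Against host kidney, Hamp was higher by 13.65 ± 0.85 (SE; adjusted p = 1.65e-08) in neo-liver and by 14.47 ± 0.85 (adjusted p = 3.34e-09) in host liver, sizes that include 3 kidney arrays below background. The 1 kidney array with measurable Hamp also had the highest hepatocyte marker sum of the 4, 29.2 against 11.1 to 19.1, and its part in the Hamp value was not tested. Among the livers, the Hamp difference did not pass the test in any comparison. It was -0.82 ± 0.85 for neo-liver against host liver (adjusted p = 0.448), -1.70 ± 0.92 for neo-liver against control liver (adjusted p = 0.140), and -0.88 ± 0.92 for host liver against control liver (adjusted p = 0.514). These SE come from a single fit that pools the spread of all groups. Hamp had its largest SD in host kidney, at 2.01, so the kidney arrays widened the SE of every liver comparison. A miss in that fit is therefore not evidence of equal Hamp levels. Fitted alone, neo-liver against host liver and host liver against control liver did not pass either. The neo-liver against control liver difference passed when those groups were fitted alone (adjusted p = 0.0273). It also passed with normexp background correction (-1.64, adjusted p = 0.0289), where kidney stayed in the fit. Over 17 settings its adjusted p lay between 0.0273 and 0.319.

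Hamp2, the second hepcidin gene, was at 2.79, 3.78, 2.72 and 0.87 in neo-liver, at 4.04, 4.79, 4.32 and 2.55 in host liver, at -4.12, -4.16, -4.35 and -4.10 in host kidney, and at 6.48, 6.97 and 7.09 in control liver. Every neo-liver and every host liver lay below every control liver, and the neo-liver and host liver ranges overlapped. In neo-liver it was 19.8-fold lower than in control liver (-4.31 ± 0.58, adjusted p = 4.75e-05), the largest difference from control liver among the 9 genes, and in host liver it was 7.58-fold lower (-2.92 ± 0.58, adjusted p = 0.00323). Both calls stood under every setting tried, with the neo-liver difference between -4.72 and -3.75 and the host liver difference between -3.21 and -2.47. Neo-liver was also lower than host liver by -1.38 ± 0.53 (adjusted p = 0.0463), but this call was lost without neo-liver 1, 3 or 4 or host liver 1, 2 or 3, with adjusted p between 0.0628 and 0.136 and a difference of -0.83 without neo-liver 4. It was also lost after quantile normalization (-1.07, adjusted p = 0.139), with normexp background correction (adjusted p = 0.0537), with slide as a random block (0.0590) and with those groups alone (0.136). Hamp2 remained far above kidney, by 6.72 ± 0.53 in neo-liver (adjusted p = 2.28e-07) and 8.10 ± 0.53 in host liver (adjusted p = 1.11e-08).

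Whether the 2 hepcidin genes changed by unequal amounts was examined within arrays. The log2 signal of Hamp minus that of Hamp2 was 5.90, 4.0, 3.53 and 6.89 in neo-liver and 5.54, 4.09, 2.55 and 5.87 in host liver, against 2.81, 2.4 and 2.20 in control liver. All neo-livers lay above all control livers, while 1 host liver fell inside the control range. The gap between neo-liver and control liver was 2.61, with p = 0.0571 in a two-sided exact permutation test and 0.129 after adjustment over the 3 pairs of liver groups. Host liver differed from control liver by 2.04 (exact p = 0.0857, adjusted 0.129) and neo-liver from host liver by 0.57 (exact p = 0.629, adjusted 0.629), and the smallest p these designs allow is 0.0286. None of the 3 differences was therefore called. With so few arrays the test has little room, since even the full separation of neo-liver from control liver gave 0.0571 before adjustment. The 2 genes are close copies, and hybridisation of one transcript to the probe of the other was not tested.

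Their promoters are printed because the genes sit near each other on chromosome 7, and Hamp2 was called lower in both host tissues against control liver while Hamp was not called. Both sequences are the 250 bases before the annotated start in RefSeq's mouse annotation (GRCm38.p6, minus strand, at chr7:30944030-30944279 for Hamp and chr7:30924182-30924431 for Hamp2), written 5′ to 3′, and the capitals mark the short motifs discussed after them.
Hamp: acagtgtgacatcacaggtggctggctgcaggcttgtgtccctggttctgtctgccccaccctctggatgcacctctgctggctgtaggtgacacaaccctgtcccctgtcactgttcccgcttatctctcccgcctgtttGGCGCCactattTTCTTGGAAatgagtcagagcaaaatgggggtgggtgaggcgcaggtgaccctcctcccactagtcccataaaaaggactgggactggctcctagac
Hamp2: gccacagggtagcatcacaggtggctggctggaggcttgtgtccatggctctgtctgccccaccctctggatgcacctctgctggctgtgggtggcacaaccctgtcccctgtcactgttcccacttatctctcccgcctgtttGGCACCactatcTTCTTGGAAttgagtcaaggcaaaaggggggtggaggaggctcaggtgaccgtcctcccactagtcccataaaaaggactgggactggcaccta
Over 247 aligned positions, 227 were identical (91.9%). GGCGCC, the core of the element through which SMAD proteins act on hepcidin genes, starts 109 bases before the start of Hamp. The aligned window of Hamp2, 106 bases before its start, reads GGCACC and carries the single substitution G4A, counted from 1 at the 5′ end of the motif with the Hamp base first. TTCNNNGAA, the pattern bound by STAT factors, occurs in both promoters with the same letters, TTCTTGGAA, starting 97 bases before the start of Hamp and 94 before that of Hamp2. Both patterns read the same on either strand and do not overlap each other. Among 32851 RefSeq promoters of the same length, GGCGCC occurred in 9.59%, TTCNNNGAA in 7.02% and both in 0.368%. Of the 7 listed genes with a promoter in that table, Hamp and Tfrc held GGCGCC, Hamp and Hamp2 held TTCNNNGAA, and Hamp alone held both. These are matches of letters only and say nothing of binding in these samples.

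Tfr2, a liver receptor that binds iron-loaded transferrin and supports hepcidin expression, was lower in neo-liver than in the other livers. It stood at 6.14, 5.68, 6.07 and 6.01 in neo-liver and at 7.59, 7.14, 7.16 and 7.30 in host liver, with -3.05, -2.31, -2.65 and -3.68 in host kidney and 7.13, 7.05 and 7.05 in control liver. The neo-livers formed a band below every other liver, with no overlap. Tfr2 was 2.5-fold lower in neo-liver than in host liver (-1.32 ± 0.23, adjusted p = 4.98e-04) and 2.15-fold lower than in control liver (-1.10 ± 0.25, adjusted p = 0.00257). The call against host liver held in all 21 settings, and that against control liver in 17 of 18, the exception being quantile normalization (-0.59, adjusted p = 0.0819). Host liver and control liver did not overlap either, but their difference of 0.22 ± 0.25 did not pass the test (adjusted p = 0.551). Against host kidney, neo-liver was higher by 8.90 ± 0.23 (adjusted p = 1.61e-12).

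Hfe encodes an MHC class I-like protein that is needed for normal hepcidin levels and whose loss causes iron overload. Its levels were 3.11, 3.25, 3.71 and 3.15 in neo-liver, 3.42, 4.03, 3.99 and 3.56 in host liver, 0.72, 0.65, 1.20 and 0.87 in host kidney, and 3.98, 3.85 and 3.69 in control liver. Neo-liver 3 reached into the range of the other livers and the remaining 3 lay below it. Hfe was lower in neo-liver than in control liver by -0.54 ± 0.19 (adjusted p = 0.0335), a call lost without control liver 1 or 2 or neo-liver 1, 2 or 4 (adjusted p between 0.0626 and 0.114) and after quantile normalization (-0.21, adjusted p = 0.377). Against host liver the difference was -0.44 ± 0.18 (adjusted p = 0.0547), which passed without host liver 1 (-0.56, adjusted p = 0.0239) or neo-liver 3 (-0.58, adjusted p = 0.0166). Host liver and control liver differed by -0.09 ± 0.19 (adjusted p = 0.759), and both hepatic host tissues were above host kidney, by 2.45 ± 0.18 in neo-liver (adjusted p = 9.79e-08) and 2.89 ± 0.18 in host liver (adjusted p = 5.75e-09).

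Trf encodes transferrin, the serum protein that carries ferric iron and is secreted by hepatocytes. It was at 9.94, 9.45, 9.32 and 9.38 in neo-liver, 10.50, 10.22, 9.89 and 10.15 in host liver, 3.23, 3.32, 3.35 and 2.90 in host kidney, and 9.94, 10.13 and 9.93 in control liver. Neo-liver 1 lay at the bottom of the range of the other livers and the remaining 3 below it. Trf was lower in neo-liver by -0.67 ± 0.16 against host liver (adjusted p = 0.00465) and by -0.48 ± 0.18 against control liver (adjusted p = 0.0363), although after quantile normalization these differences were 0.16 and 0.12 and neither passed. The call against control liver was also lost without any 1 control liver or without neo-liver 2, 3 or 4 (adjusted p between 0.0619 and 0.123). A second Trf probe gave -0.75 and -0.48 for the same comparisons. Neo-liver exceeded host kidney by 6.32 ± 0.16 (adjusted p = 1.51e-12).

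Tfrc, which encodes transferrin receptor 1 and takes iron-loaded transferrin into cells, had a different pattern. It stood at 0.29, 0.39, 0.09 and 0.21 in neo-liver, 0.08, 0.71, 0.40 and 0.11 in host liver, 0.50, 0.75, 0.20 and 0.37 in host kidney, and 1.56, 1.33 and 1.07 in control liver. The 3 control livers were above every other array and the 3 host tissues overlapped. Tfrc was 2.11-fold lower in neo-liver than in control liver (-1.08 ± 0.18, adjusted p = 2.41e-04) and 1.99-fold lower in host liver than in control liver (-0.99 ± 0.18, adjusted p = 0.00181). Both calls held in every setting tried. The differences between host tissues were -0.21 ± 0.16 for neo-liver against host kidney (adjusted p = 0.305) and -0.08 ± 0.16 for neo-liver against host liver (adjusted p = 0.703). The probe used was printed at 10 spots on each array, and 2 further Tfrc probes gave -1.07 and -0.60 for neo-liver against control liver, and -0.40 and -0.32 for host liver against control liver. For neo-liver against host liver these 2 probes gave -0.67 and -0.28, so the size of that difference depends on the probe. The first of them was above background on 12 of 15 arrays. Tfrc transcript is known to be stabilised when cells are short of iron, and iron itself was not measured here.

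Slc40a1 encodes ferroportin, the exporter that hepcidin acts on, and is strong in Kupffer cells, the liver's resident macrophages, as well as in hepatocytes. It was at 5.10, 4.52, 4.75 and 5.18 in neo-liver, 5.73, 4.84, 5.66 and 5.96 in host liver, 3.05, 2.64, 2.87 and 3.18 in host kidney, and 5.0, 5.29 and 5.25 in control liver. Host liver 2 lay within the neo-liver range and the other host livers were above all neo-livers and control livers. The gene was 1.58-fold lower in neo-liver than in host liver (-0.66 ± 0.22, adjusted p = 0.0260), a call lost without host liver 1, 3 or 4 or neo-liver 2 or 3 (adjusted p between 0.0582 and 0.0788), after quantile normalization (-0.22, adjusted p = 0.522) and with those groups alone (adjusted p = 0.0820). Against control liver, the differences were -0.29 ± 0.24 in neo-liver (adjusted p = 0.327) and 0.37 ± 0.24 in host liver (adjusted p = 0.287), and without host liver 2 the host liver value was 0.60 and passed (adjusted p = 0.0340). The summed level of 9 Kupffer cell and macrophage markers was 121 to 186 in neo-liver and 195 to 347 in host liver, and 134 to 230 in control liver, so it moved with Slc40a1, and its part in the difference was not tested. Slc40a1 was higher in neo-liver than in host kidney by 1.95 ± 0.22 (adjusted p = 8.37e-06).

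Fth1 encodes the ferroxidase subunit of ferritin, the intracellular iron store, and was the flattest of the 9. Its levels were 8.34, 8.81, 8.80 and 8.61 in neo-liver, 8.69, 9.22, 9.28 and 8.88 in host liver, 9.12, 8.92, 8.83 and 8.78 in host kidney, and 8.91, 8.96 and 8.83 in control liver. The 4 groups lay within 1 log2 unit of each other, with the neo-livers just below the control livers. Fth1 was lower in neo-liver than in host liver by -0.38 ± 0.15 (adjusted p = 0.0482), but after quantile normalization it was higher by 0.51 (adjusted p = 0.0371), so no direction is taken from it. That call was also lost without host liver 2 or 3 or neo-liver 1 or 4 (adjusted p between 0.0911 and 0.137). Its differences from host kidney (-0.27 ± 0.15, adjusted p = 0.138) and from control liver (-0.26 ± 0.16, adjusted p = 0.191) did not pass.

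Hpx encodes hemopexin, the plasma glycoprotein that binds free haem and delivers it to hepatocytes. It was at 9.35, 8.72, 9.11 and 8.95 in neo-liver, 10.30, 9.68, 9.69 and 10.02 in host liver, -5.24, -2.92, -4.08 and -3.82 in host kidney, and 8.75, 9.03 and 8.99 in control liver. Every host liver lay above every neo-liver and every control liver, and those last groups overlapped. Even so, the differences of -0.89 ± 0.36 for neo-liver against host liver (adjusted p = 0.0533) and 1.00 ± 0.38 for host liver against control liver (adjusted p = 0.0739) missed the threshold. With normexp background correction both passed, at -0.82 (adjusted p = 0.00200) and 0.98 (adjusted p = 0.00298), while after quantile normalization the difference between neo-liver and host liver was 0.08. Hpx was higher in neo-liver than in host kidney by 13.05 ± 0.36 (adjusted p = 2.43e-12), and differed from control liver by 0.11 ± 0.38 (adjusted p = 0.831).

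**Figure D2:**
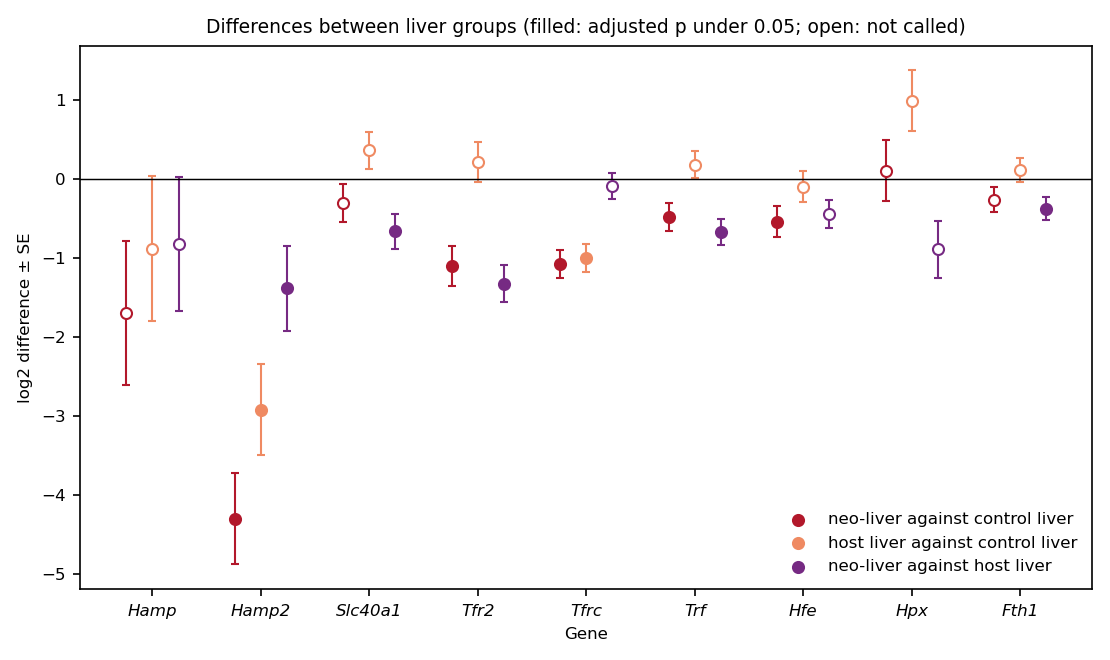
Differences of the 9 genes between liver groups, as log2 difference ± SE from the limma fit, with filled points for adjusted p under 0.05. Hamp2 is lowest against control liver in both host tissues (-4.31 in neo-liver and -2.92 in host liver), Tfrc is near -1 in both, and Tfr2 is lower in neo-liver against both other livers. The neo-liver differences of Trf and Fth1, and that of Hpx against host liver, are above 0 after quantile normalization, which is not plotted.

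Order of the levels differed among the genes. Hamp, Hamp2 and Hfe were highest in control liver, followed by host liver, neo-liver and host kidney. Slc40a1, Tfr2 and Trf ran from host liver through control liver and neo-liver to host kidney, and Hpx from host liver through neo-liver and control liver to host kidney. The neighbouring groups without overlap were neo-liver and host kidney in those first 6 genes, control liver and host kidney for Hpx, the 2 hepatic neighbours at the top for Hamp2, Tfr2 and Hpx, and control liver and neo-liver for Tfr2. For Tfrc only the top step, control liver above host kidney, was free of overlap, and for Fth1 only the lowest step, control liver above neo-liver. In host liver against host kidney the same 7 genes were higher as in neo-liver and also free of overlap, beside 39.6% of all genes called higher, 31.2% called lower and 62.5% without overlap, while Tfrc (-0.13 ± 0.16, adjusted p = 0.505) and Fth1 (0.11 ± 0.15, adjusted p = 0.534) did not pass. These comparisons share their kidney arrays.

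Arrays of the host tissues that carry the same number deviated from their group means together, and were taken as tissues of the same mouse on that basis, since the labels give only the number. Seen this way, Hamp was lower in the neo-liver than in the liver of its own host in 4 of 4 mice, by -0.89, -1.09, -0.62 and -0.66. Mouse 3 had the lowest Hamp of the 4 in both tissues and mouse 1 the highest. Hamp2 was lower in 4 of 4 mice, by -1.25, -1.01, -1.60 and -1.68, and was lowest in mouse 4 in both tissues. Tfr2 was lower by -1.45, -1.46, -1.09 and -1.28.

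In all, 8 of the 9 genes were lower in neo-liver in 4 of 4 mice, as were 46.9% of all genes, and Tfrc was lower in 2 of 4. With the mouse as a replicate block in a limma fit of those tissues alone, a setting chosen after the data had been seen, all 8 were called lower, beside 40% of all genes. Hamp then had -0.82 ± 0.11 (adjusted p = 0.00394) and Hpx an adjusted p of 0.00313. Hfe passed as well (adjusted p = 0.0228). With the mouse block over 3 host tissues, 5 genes were called, with Hfe gained (adjusted p = 0.0163) and Fth1 lost (adjusted p = 0.0544), while Hamp (adjusted p = 0.383) and Hpx (0.111) did not pass. With the mouse as a random block Hamp did not pass either (adjusted p = 0.333), so its call rests on the fit of those tissues alone. Both block fits in which Hamp did not pass include the host kidney arrays, where its SD was largest (2.01). The 10 hepatocyte markers behaved as these genes did: 10 of 10 were called lower under the same 2-tissue block, and 9 of the 9 measured in every mouse were lower in 4 of 4. Fewer hepatocytes in the sample and less of a transcript per hepatocyte cannot be told apart in RNA from whole tissue.

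**Figure D3:**
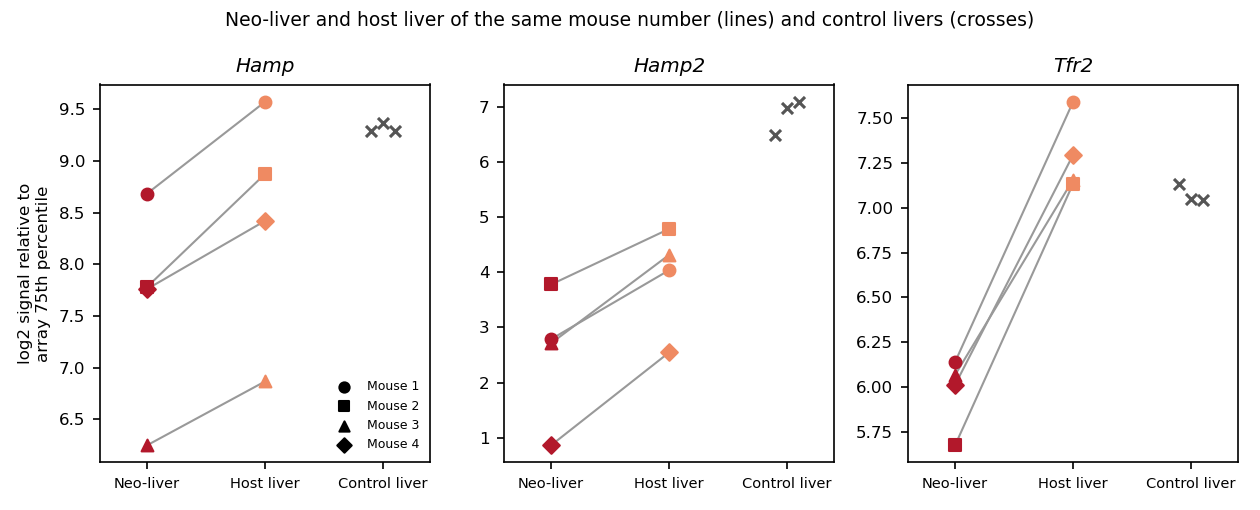
Hamp, Hamp2 and Tfr2 in neo-liver and host liver of the same mouse number (joined points) and in control liver (crosses), as log2 signal relative to the array's 75th percentile on axes with their own ranges. Each of the 12 lines runs lower at its neo-liver end, and for Hamp and Hamp2 the highest and the lowest mouse are further apart than neo-liver and host liver are within any mouse.

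Some lists of cell markers moved with these differences and others did not. Of 10 hepatocyte markers, 7 were lower in neo-liver relative to host liver and 7 relative to control liver. Of all genes, 31.5% and 29.8% were lower and 17.1% and 20.4% higher in those comparisons. The hepatocyte medians were -0.92 and -0.98, beside medians over all genes of -0.21 and -0.15. The list's 9 iron and haem genes had medians of -0.67 and -0.54 in the same comparisons. Sinusoidal endothelium, the source of the bone morphogenetic proteins that drive Hamp, had 6 of 8 markers lower and 1 higher in neo-liver relative to host liver, and 4 lower and 1 higher relative to control liver. Its summed marker level was 50.6 to 88.2 in neo-liver and 105 to 208 in host liver, and 111 to 118 in control liver. Erythroid markers, whose precursor cells signal to hepcidin when blood is made, summed to 99.8 to 495 in neo-liver and 240 to 1032 in host liver. The sum was 208 to 921 in host kidney and 82.1 to 133 in control liver. The list was mixed: of 7 tested, 1 was higher and 1 lower in neo-liver against host liver, and likewise against control liver. In host liver 2 were higher and 1 lower than in control liver, beside 13.4% and 11.2% of all genes. Kupffer cell and macrophage markers had 4 of 9 lower in neo-liver against host liver and 0 called against control liver. Stellate cell markers had 2 of 8 and 1 of 8 lower. No lymphocyte or proliferation marker was called between neo-liver and host liver, while 4 of 7 and 5 of 7 were higher in neo-liver than in control liver. The part of each of these in the values of the 9 genes was not tested. Subtracting from each neo-liver array its kidney share of the mean kidney signal, without rescaling, left Hamp, Hamp2, Tfr2, Trf and Hpx within 0.01 of their differences from host liver, and brought Tfrc to -0.56 (adjusted p = 0.0125), Hfe to -0.51 (adjusted p = 0.0280), Fth1 to -0.87 (adjusted p = 4.21e-04) and Hpx to a call at -0.89 (adjusted p = 0.0407). In all 8 genes were then called lower, beside 58.1% of all genes, and the median of all genes was -0.69, below the values of Tfrc and Hfe. Hamp, Hamp2, Tfr2, Trf and Hpx are so much lower in host kidney that this subtraction could hardly move them. Without rescaling it cannot show how far kidney RNA diluted liver transcripts, which was not tested.

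The genes upstream of hepcidin were taken from lists. In the bone morphogenetic protein and SMAD input 27 genes were tested. In neo-liver against host liver 5 were higher and 8 lower, beside 17.1% and 31.5% of all genes. Compared with control liver, 5 were higher and 7 lower in neo-liver, beside 20.4% and 29.8%. In host liver 2 were higher and 2 lower than in control liver, beside 13.4% and 11.2%. The neo-liver counts were thus near the shares of all genes. After quantile normalization the neo-liver counts were 4 and 5, and 6 and 4, and after median centring 3 and 13, and 5 and 8. With the kidney share subtracted they were 1 and 16, and 2 and 13. Over the 15619 genes tested, quantile normalization called 2687 higher and 2597 lower against host liver, and 3609 and 3300 against control liver. Median centring called 2105 and 7004, and 2992 and 4988. Subtracting the kidney share called 1305 and 9071, and 1746 and 8269, the lower calls against host liver being 58.1% of all genes. Bmp6, the ligand that mainly carries the iron signal, was at 0.16, 1.19, 0.60 and 0.83 in neo-liver and 0.26, -0.32, -0.55 and 0.45 in host liver, against 0.35, 0.23 and 0.35 in control liver. Its difference between neo-liver and host liver was 0.73 ± 0.28 (adjusted p = 0.0419), though the groups overlapped, and host kidney was at 0.59 to 1.64. That call was lost after quantile normalization (0.75, adjusted p = 0.0526) and after median centring (0.54, adjusted p = 0.111). Bmp2, the second endothelial ligand, was lower in neo-liver than in host liver by -1.06 ± 0.23 (adjusted p = 0.00229). Bmp4 and Bmp7 were higher in neo-liver by 1.63 and 2.73 against host liver and lower by -1.65 and -1.34 against host kidney.

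Hjv, the co-receptor hemojuvelin, was lower in neo-liver by -0.75 ± 0.21 against host liver (adjusted p = 0.00924) and by -0.64 ± 0.22 against control liver (adjusted p = 0.0282; 0.0567 with normexp background correction). Tmprss6, the protease that restrains this pathway, was lower as well, by -1.03 ± 0.28 (adjusted p = 0.00856) and -1.18 ± 0.30 (adjusted p = 0.00548), but after quantile normalization neither passed (adjusted p = 0.230 and 0.121). Among targets of SMAD signalling beside Hamp, Id3 was lower in neo-liver than in control liver by -0.88 ± 0.31 (adjusted p = 0.0290). That call was lost after quantile normalization (-0.45, adjusted p = 0.269). The Id3 difference between neo-liver and host liver was -0.47 ± 0.29 (adjusted p = 0.185). Id1 differed by 0.43 ± 0.32 between neo-liver and host liver (adjusted p = 0.272) and by 0.07 ± 0.34 between neo-liver and control liver (adjusted p = 0.877). Smad7, an inhibitor induced by the pathway, was lower in host liver than in control liver by -0.90 ± 0.27 (adjusted p = 0.0279), and its difference of -0.49 ± 0.27 in neo-liver did not pass (adjusted p = 0.148). Smad9 was lower in neo-liver by -1.55 and in host liver by -1.08 against control liver.

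Gdf15, a stress-induced cytokine that has been linked to low hepcidin in anaemias with ineffective red cell formation, rose most on this list against control liver. It was at 4.82, 4.36, 4.84 and 4.76 in neo-liver and 5.63, 5.31, 5.39 and 5.38 in host liver, against 0.08, 0.52 and 0.51 in control liver. Gdf15 was thus higher than in control liver by 4.32 ± 0.37 in neo-liver (adjusted p = 8.16e-07) and by 5.06 ± 0.37 in host liver (adjusted p = 4.90e-06), with host kidney at 1.40 to 3.44. Erfe, the erythroblast hormone that lowers hepcidin, did not pass the background filter and was not tested.

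In the inflammatory input, 1 of 10 genes was higher and 3 lower in neo-liver, both against host liver and against control liver. Of all genes, 17.1% and 20.4% were higher and 31.5% and 29.8% lower. In host liver 2 of the 10 were higher and 1 lower than in control liver, beside 13.4% and 11.2%. The gene higher against host liver was Il22 (0.39), which was -0.14 with normexp background correction and 0.20 with median centring, neither called. Il6 did not pass the background filter and was not tested. After quantile normalization no gene of the 10 was called between neo-liver and host liver. Inhbb encodes the activin B subunit and can raise hepcidin in inflammation. It was higher than in control liver by 3.15 ± 0.75 in neo-liver (adjusted p = 0.00340) and by 3.47 ± 0.75 in host liver (adjusted p = 0.00526). Only 2 of the 3 control livers had Inhbb well above background, so these sizes depend on signal near background. Cebpa, a hepatocyte transcription factor that binds the hepcidin promoter, was lower in neo-liver by -1.08 ± 0.27 against host liver (adjusted p = 0.00483; 0.0559 after quantile normalization) and by -1.81 ± 0.29 against control liver (adjusted p = 1.86e-04). Socs3, an early target of STAT3, was at 3.72, 0.68, 2.08 and 2.24 in neo-liver and 5.02, 1.25, 2.53 and 2.41 in host liver, against 1.28, 0.89 and 0.86 in control liver. Mouse 1 was highest in both tissues for Socs3, as it was for Hamp, but mouse 3, lowest for Hamp, was not lowest for Socs3. The Socs3 differences did not pass in any pair of livers (adjusted p = 0.531 for neo-liver against host liver, 0.262 for neo-liver against control liver and 0.136 for host liver against control liver).

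The 15 acute phase genes encode liver proteins that rise with inflammation. Set against host liver, 12 were lower and none higher in neo-liver, with a median of -1.20. Of all genes, 31.5% were lower and 17.1% higher there. After quantile normalization 3 were lower, with a median of -0.71. Against control liver 2 were lower in neo-liver, beside 29.8% of all genes. In host liver 2 were higher than in control liver, beside 13.4%, namely Lbp (1.71) and Apcs (1.61). Saa1 gave -0.87 ± 0.89 between neo-liver and host liver (adjusted p = 0.441), and Saa4 was lower there by -2.0 ± 0.50 (adjusted p = 0.00556). Set against host kidney, all 15 were higher in the engrafted tissue, beside 23.2% of all genes.

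Most haem synthesis genes were lower in neo-liver. Of the 14 on the list, 10 were lower in neo-liver relative to host liver and 12 relative to control liver, with none higher. Of all genes, 31.5% and 29.8% were lower. The list's medians were -0.76 in both, and those of the 10 hepatocyte markers were -0.92 and -0.98. In host liver 1 haem synthesis gene was higher and 2 lower than in control liver, beside 13.4% and 11.2% of all genes. After quantile normalization 4 and 7 were lower in neo-liver and none higher. Alas1, the rate-limiting enzyme of the liver, was at 7.28, 7.26, 7.72 and 6.21 in neo-liver and 8.25, 8.51, 8.63 and 7.49 in host liver, against 7.95, 7.98 and 8.27 in control liver. It was lower in neo-liver by -1.10 ± 0.31 against host liver (adjusted p = 0.00997) and by -0.95 ± 0.33 against control liver (adjusted p = 0.0297), calls that quantile normalization removed (-0.48, adjusted p = 0.231, and -0.39, adjusted p = 0.346). Alad, the second enzyme of the pathway, was lower by -1.11 ± 0.20 (adjusted p = 5.61e-04) and -1.09 ± 0.21 (adjusted p = 8.66e-04). Alas2, the red cell form of the first enzyme, went the other way in host liver, 1.91 ± 0.57 above control liver (adjusted p = 0.0282), in samples whose erythroid marker sum, which includes Alas2, was also above the control range.

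**Figure D4:**
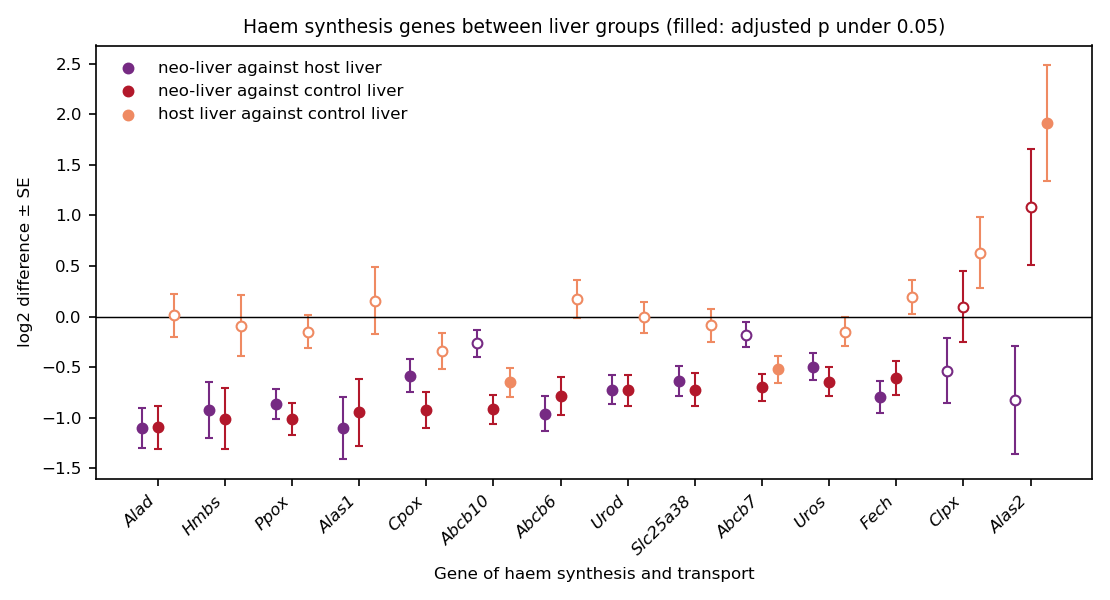
Differences of the 14 haem synthesis and transport genes between liver groups, as log2 difference ± SE from the limma fit, with filled points for adjusted p under 0.05. The neo-liver points lie below 0 against both other livers for all genes but Clpx and Alas2, which are above 0 against control liver, and 12 genes are called against control liver.

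Clearance of haem and haemoglobin, the function Hpx belongs to, had 7 of 13 genes lower and none higher in neo-liver when set against host liver, 2 higher and 3 lower in neo-liver against control liver, and 3 higher and 1 lower in host liver against control liver. Of all genes, 31.5% were lower in neo-liver against host liver, and 20.4% were higher and 29.8% lower against control liver. In host liver 13.4% were higher and 11.2% lower than in control liver. After quantile normalization the neo-liver counts were 0 higher and 2 lower, and 3 higher and 2 lower. Hp, which encodes haptoglobin and binds free haemoglobin, was higher in host liver than in control liver by 1.17 ± 0.26 (adjusted p = 0.00614). In neo-liver Hp was lower than in host liver by -0.73 ± 0.24 (adjusted p = 0.0236), but after quantile normalization the difference was 0.10 (adjusted p = 0.746). Lrp1, the hemopexin receptor, was lower in neo-liver than in host liver by -1.12 ± 0.22 (adjusted p = 0.00101). Cd163, the macrophage receptor for haptoglobin bound to haemoglobin, was well above background only in control liver. It was at least 3.91-fold lower in neo-liver (adjusted p = 1.75e-04) and at least 1.97-fold lower in host liver (adjusted p = 0.0197) than in control liver, and with normexp background correction the host liver call was lost (-0.43, adjusted p = 0.234). Hmox1, the haem-degrading enzyme, was at 4.19, 2.84, 3.76 and 4.31 in neo-liver and 4.29, 2.92, 3.93 and 4.58 in host liver, against 2.87, 3.35 and 3.11 in control liver, and no pair of livers passed. Flvcr2, a transporter linked to haem uptake, was higher than in control liver by 2.82 ± 0.45 in neo-liver (adjusted p = 1.92e-04) and by 2.97 ± 0.45 in host liver (adjusted p = 6.51e-04).

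Among 8 partners of storage and export, 1 was higher and 4 lower in neo-liver relative to host liver, 1 higher and 3 lower relative to control liver, and 2 higher and 1 lower in host liver than in control liver. The shares of all genes in neo-liver were 17.1% higher and 31.5% lower against host liver, and 20.4% and 29.8% against control liver. Those in host liver against control liver were 13.4% and 11.2%. After quantile normalization the neo-liver counts were 1 higher and 0 lower, and 2 higher and 1 lower. Ftl1, the ferritin light chain that assembles with Fth1, was lower in neo-liver by -0.65 ± 0.14 against host liver (adjusted p = 0.00203) and by -0.50 ± 0.15 against control liver (adjusted p = 0.0137), but after quantile normalization these were 0.18 (adjusted p = 0.180) and 0.08 (adjusted p = 0.558), so no direction is taken from it. Ncoa4, which delivers ferritin for degradation, was lower than in control liver by -0.81 in neo-liver and -0.42 in host liver, the host liver call being lost after median centring (-0.27, adjusted p = 0.168). Cp, the plasma ferroxidase ceruloplasmin that works with ferroportin, was higher in host liver than in control liver by 1.01 ± 0.31 (adjusted p = 0.0302; 0.0642 after quantile normalization). Of the 3 iron sensing genes, Aco1, which encodes iron regulatory protein 1, was lower in neo-liver by -0.47 ± 0.13 against host liver (adjusted p = 0.0112) and by -0.77 ± 0.14 against control liver (adjusted p = 6.23e-04), Ireb2 was lower against host liver (-0.52 ± 0.20, adjusted p = 0.0426), and none was called between host liver and control liver.

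In iron import and reduction, 7 of 14 genes were higher in neo-liver relative to host liver and 3 lower, beside 17.1% of all genes called higher, and 7 were higher and 1 lower relative to control liver, beside 20.4%. In host liver 2 were higher than in control liver. With the kidney share subtracted, the neo-liver counts were 4 higher and 4 lower, and 7 higher and 4 lower, and the median against host liver was 0.31 in place of 0.99. Genes of kidney tubule were among the higher ones: Cubn and Lrp2, receptors that retrieve filtered transferrin and other proteins, were both lower in neo-liver than in host kidney, by -1.88 and -2.13, and are among the tubule markers described at the start. Lcn2, an iron-sequestering protein induced by injury and infection, was higher than in control liver by 2.49 ± 0.85 in neo-liver (adjusted p = 0.0263) and by 2.74 ± 0.85 in host liver (adjusted p = 0.0329). Slc39a14, which takes up iron not bound to transferrin, was lower in neo-liver than in host liver by -0.88 ± 0.28 (adjusted p = 0.0208; 0.197 after quantile normalization). Against host kidney, the neo-liver counts were 12 higher and 6 lower of 27 for the bone morphogenetic protein list and 4 and 1 of 10 for the inflammatory list. They were 4 and 8 of 14 for import, 4 and 2 of 8 for storage and export, and 0 and 1 of 3 for sensing. Clearance had 7 and 3 of 13, and haem synthesis 6 and 0 of 14. Of all genes, 23.2% were higher and 29.5% lower there.

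The genes whose profile over the 11 liver arrays came nearest to each of the 9 were found among 12496 genes above background on all of them, by the mean absolute difference of centred log2 levels. For Hamp they were Ppp1r1b (0.25), Nr5a1 (0.27) and D130043K22Rik (0.30), while Hamp itself deviated from its own mean by 0.88 on average. For Hamp2, which deviated from its own mean by 1.56, they were Dleu2 (0.44), Hnf4aos (0.50) and 1810064F22Rik (0.54). Tfr2 was followed most closely by Cldn14 (0.09), Afm (0.09) and Azgp1 (0.10), Tfrc by Mrs2 (0.10), Gng7 (0.11) and Gpbar1 (0.12), and Slc40a1 by Rnf166, Gja4 and Nfkbia (0.13 to 0.14). Trf was nearest to F10, Exosc2 and Kctd14 (all 0.04), Hfe to Mkrn2 (0.07), 1110059E24Rik (0.08) and Psmd12 (0.09), Hpx to Ube2o (0.11), H6pd (0.13) and Rnf126 (0.14), and Fth1 to Fam91a1, Txn1 and Bloc1s2 (0.05 to 0.06).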

How the data were processed

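Each of 15 RNA samples was hybridised to its own one-colour Agilent array. Per the file headers and the submitters' processing notes, the scanner files hold intensity values from Agilent Feature Extraction 10.10.1.1, with the processed signal background-subtracted and not scaled between arrays. The authors also deposited a log2 table, which differed from the log2 of that signal by a constant for each array, to within 0.01.

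Each array's log2 processed signal was expressed relative to its own 75th percentile. Control and outlier-flagged spots were left out and spots of a probe averaged (59305 spots, 55681 probes). A probe was kept if well above background on every array of at least 1 group, and the brightest kept probe stood for its symbol (15619 genes). Of 34984 kept probes, 14596 had no symbol and were not tested. Groups were compared in a single limma fit of all 15 arrays, 1 mean for each group, with limma 3.58.1 and statmod 1.5.0 under R 4.3.3 (package data.table, version 1.17.8), after a test on simulated data. Where every array of a group was below background, a fold is given as "at least", taken on each array against its dimmest probe that was well above background, or against the gene's own signal where that was higher. Promoters were searched with Python 3.11.15 and aligned with Biopython 1.88. The alternatives were another background correction, normalization, filter or probe rule, the deposited table, slide and replicate blocks, subtraction of a kidney share, and leaving out each array.

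Same-numbered host arrays correlated in their deviations from group means (r from 0.179 to 0.577) and each was nearest to its own number, so the numbers pair the samples. The genes, the 8 pathway lists and the 9 marker lists were chosen with earlier results of these data known. Named beyond the 9 genes are 15 lead genes and, per list and comparison, up to 3 genes with the largest called change in each direction whose groups do not overlap. Arrays have no read depth, so their number and the signal over background limit precision.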

Additional observations from a re-analysis of the deposited data

How the results depend on the processing

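Of the alternatives tried for the 9 genes, 768 kept the direction and call, 41 lost the call, 27 gained it and 14 reversed. In 5 reversals the difference was called in the report or under the alternative, and all 5 came with quantile normalization: Fth1 in neo-liver against host liver (0.51), in neo-liver against control liver (0.58) and in host liver against host kidney (-1.14), and Trf in neo-liver against host liver (0.16) and against control liver (0.12), where the cause was not tested. The other 9 were called in neither: Hpx in neo-liver against host liver (0.0774), Slc40a1 in neo-liver against control liver (0.12) and Trf in host liver against control liver (-0.0449) with quantile normalization, Hfe in host liver against control liver (0.0528) and Tfrc in host liver against host kidney (0.0917) with median centring, Tfrc in host liver against host kidney with the mean of kept probes (0.22), Fth1 there with normexp background correction (-0.0543), and, leaving out 1 array, Hfe in host liver against control liver (-0.186 to 0.0182, highest without host liver 1) and Tfrc in neo-liver against host liver (-0.164 to 0.0468, highest without host liver 2). The count of the 9 called in neo-liver against host liver, 5 lower in the report, was 2 with quantile normalization, of which 1 was higher and 1 lower. Under the other settings every call was lower. The count was 3 with those groups alone, 3 with slide as a random block and 8 with the kidney share subtracted. It was 8 with the replicate block in those tissues alone, 7 with median centring and 4 with normexp background correction. With the stricter filter on dim probes 7 of 8 tested were called, and leaving out 1 array gave 2 to 4. In neo-liver against control liver the count was 3 with quantile normalization (1 higher and 2 lower), 6 with normexp background correction, 6 with the kidney share subtracted and 3 to 4 leaving out 1 array, against 5. The count of all genes called in host liver against control liver, 3854, was 2521 with those groups alone and 2275 to 4162 leaving out 1 array, lowest where a control liver was left out. Hamp minus Hamp2 in neo-liver against host liver lay between -0.0848, without host liver 3, and 1.08, against 0.57, and was -0.04 without neo-liver 4.

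Scaling moved the split of calls. In neo-liver against host liver 2670 genes were higher and 4920 lower, 2687 and 2597 with quantile normalization, and 2105 and 7004 with median centring, which put the median of all genes at -0.41 against -0.21. In neo-liver against control liver the split was 3183 and 4651, and 3609 and 3300 with quantile normalization. In host liver against control liver it was 2098 and 1756, and 3246 and 1190 with median centring. Quantile normalization put that median at -0.07 in neo-liver against host liver (-0.21 in the report), -0.02 in neo-liver against control liver (-0.15) and -0.05 in host liver against host kidney (0.14), and median centring put it at 0.22 in host liver against control liver (0.08) and 0.36 in host liver against host kidney. Subtracting the kidney share put the median of all genes at -0.69 in neo-liver against host liver. The replicate block with 3 host tissues or as a random block kept 7 genes called against host kidney and left 5 and 7 called in neo-liver against host liver.

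The stricter filter on dim probes removed Hamp, which is below background in kidney, so no value was had there. With 3 or 4 arrays a group, small differences of the bright genes Fth1 and Trf depend on the scaling, and kidney levels of Hamp are limited by background. The labels do not say whether arrays with 1 number share a mouse.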
